A study of Mus musculus with 6 samples.

Results

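The genes described here are 10 receptors that guide cells of the B lineage through bone marrow, blood and lymphoid organs: the chemokine receptors Cxcr5, Ccr7, Cxcr4, Ccr6, Ccr9, Cxcr3 and Ccr2, the sphingosine 1-phosphate receptors S1pr1 and S1pr4, and the oxysterol receptor Gpr183. Members were chosen by gene symbol, and every probe that the platform annotation names for one of them was taken, which gave 14 of 45281 probes, for 10 of 19053 named genes. The RNA was from sorted B220+CD43+ cells of mouse bone marrow, a gate for early B-lineage cells that the labels call pre-B cells, and was measured on 6 single-colour Illumina BeadChip arrays. On the labels, 3 arrays hold RNA of Fnip1 -/- mice (here Fnip1-null), in which the gene for folliculin-interacting protein 1 is said to be inactive, and 3 hold RNA of Wt mice (wild type). Age, strain and the way the gene was changed are not given in the labels, and neither group is described as treated. The scanner columns of the knockout arrays also carry the words LPAB and Yugioh, whose meaning is not stated in the sources used here.

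All of these receptors are G protein-coupled receptors, most of which act through the inhibitory G protein Gi to steer a cell up a gradient of its ligand. In bone marrow, CXCR4 holds developing B cells close to stromal cells that make the chemokine CXCL12. Cells that leave follow sphingosine 1-phosphate, which is rich in blood, and mature B cells then use CXCR5, CCR7 and GPR183 to find follicles and the T cell border in spleen and lymph nodes. Sphingosine 1-phosphate receptors and chemokine receptors thus mark where a B-lineage cell can go as much as what stage it has reached.

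Levels are log2 intensities after background correction and quantile normalization, with a fold change given as Fnip1-null minus wild type, so a positive value stands for a higher level under the label Fnip1-null. A probe counted as detected at a detection p under 0.05, and a change was called at a limma p under 0.05 after Benjamini-Hochberg adjustment over all 18172 tested probes. Arrays had between 17442 and 18294 detected probes, and their number, 3 in each group, limits the precision. Signal of Fnip1 itself was higher on the arrays labelled Fnip1-null (log2 fold change 0.95, SE 0.11, limma adjusted p = 0.000663, by its brightest probe). Its other tested probes stood at 0.78 and 0.88 and were also called higher, and its remaining probe was detected on no array. The Fnip1 signal thus does not bear out the genotype labels, although probes outside the changed part of the gene would check nothing. By Xist and the Y-linked Eif2s3y, array A of each group held male RNA and arrays B and C female RNA. Defining B-lineage genes Vpreb1, Igll1, Blnk and Ebf1 were detected on all 6 arrays and Pax5 on none, while no probe was named for Cd79a. Defining genes of other cell types were detected on all 6 arrays too, among them Siglech of plasmacytoid dendritic cells and Csf1r of monocytes and macrophages.

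Of the 14 probes, 10 were tested, covering 8 of the 10 genes, and the probes of Ccr9 and S1pr1 were detected on no array. Cxcr5 and Ccr7 rose and Ccr2 fell on the arrays labelled Fnip1-null, while Cxcr4, Ccr6, Cxcr3, S1pr4 and Gpr183 did not pass the test. By probe, 4 of 10 were called higher, where 7.71% of all tested probes were, and 1 of 10 lower, where 6.5% were. The 4 higher probes belong to only 2 genes, since 3 of them target Cxcr5 and are not separate evidence. By gene, 2 of 8 tested members were called higher and 1 lower, against 7.87% and 5.25% of all 9679 tested genes. The groups did not overlap for 4 of the 8 (Cxcr5, Ccr7, Ccr2 and Ccr6), and for 33% of all tested genes.

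**Figure D1:**
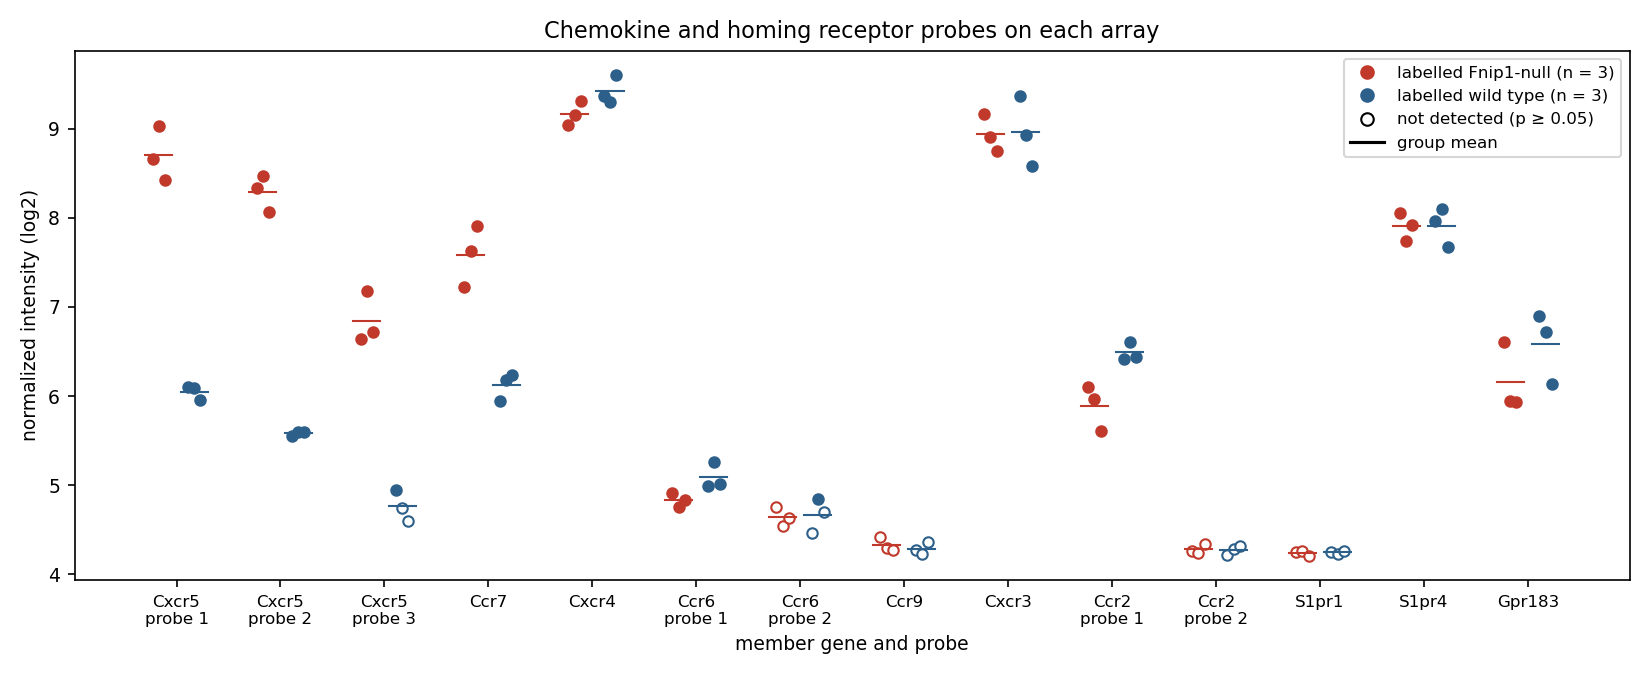
Normalized log2 intensity of each of the 14 member probes (x axis) on the 3 arrays labelled Fnip1-null (red, left of each pair) and the 3 labelled wild type (blue, right), with bars at the group means and open points where the probe was not detected. The groups lie far apart for the 3 probes of Cxcr5 and the probe of Ccr7, and heights of different probes are not comparable with each other.

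Cxcr5 encodes the receptor of CXCL13, the chemokine that draws mature B cells and follicular helper T cells into B cell follicles. Its brightest probe, ILMN_2990494, read 8.66, 9.03 and 8.43 on arrays A, B and C labelled Fnip1-null, against 6.11, 6.09 and 5.96 on those labelled wild type. The second probe, ILMN_2990502, read 8.34, 8.47 and 8.07 on the arrays labelled Fnip1-null and 5.55, 5.60 and 5.60 on those labelled wild type. The dimmest, ILMN_1219316, read 6.64, 7.18 and 6.72 on the arrays labelled Fnip1-null, against 4.95, 4.74 and 4.60 on those labelled wild type, where it was detected on 1 of 3, so that it passed the detection filter mainly through the arrays labelled Fnip1-null. For all 3 probes every array labelled Fnip1-null lay above every array labelled wild type, and array B was the highest of the arrays labelled Fnip1-null.

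The change of Cxcr5 was of similar size on the brighter probes, with folds of 6.30 (95% interval 4.96 to 7.999, limma adjusted p = 9.43e-06) and 6.55 (5.41 to 7.93, limma adjusted p = 2.79e-06). On the dimmest probe it was 4.24 (3.30 to 5.44, limma adjusted p = 6.03e-05). The log2 fold change of the dimmest probe depended on the background correction: it was 2.08 here, 1.29 with an offset of 50 and 3.27 in the authors' processed values. In the unprocessed scanner signal the brightest probe stood at 402.7, 579.9 and 372.9 on the arrays labelled Fnip1-null and at 94.0, 90.0 and 78.7 on those labelled wild type, so the groups were apart before normalization too. Between the male arrays the log2 difference of this probe was 2.55, and between the means of the female arrays 2.71.

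Ccr7 encodes the receptor of CCL19 and CCL21, which brings naive lymphocytes and dendritic cells into the T cell zones of lymph nodes and draws activated B cells to the border of the follicle. Its 1 probe read 7.22, 7.63 and 7.91 on arrays A, B and C labelled Fnip1-null, against 5.94, 6.19 and 6.23 on those labelled wild type. The groups do not overlap, and the arrays labelled Fnip1-null spread more widely (SD 0.35, against 0.16 for wild type, n = 3 each). The fold was 2.76 (95% interval 2.11 to 3.61, limma adjusted p = 0.000771). Within the male pair the log2 difference was 1.28, and between the female means 1.56. Groups apart in this direction were found for 4 of the 10 tested member probes, those of Cxcr5 and Ccr7, where 17.4% of all tested probes had them.

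The change of Cxcr5 exceeded that of Ccr7 by 1.19 on the log2 scale, by the brightest probes. Each array gives 1 value of Cxcr5 over Ccr7, and an exact two-sided permutation test on these values gave p = 0.1, the smallest that this test can give with 3 arrays against 3. The same p was found for the change of Cxcr5 set against that of each of the other 6 tested members, with differences between 2.66 for S1pr4 and 3.25 for Ccr2. The p of this test is therefore no measure of how firm the 7 differences are, and they are given as values.

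Ccr2 encodes the receptor of CCL2, which takes monocytes out of the bone marrow. Probe ILMN_1222795 read 6.10, 5.97 and 5.61 on arrays A, B and C labelled Fnip1-null, against 6.42, 6.61 and 6.44 on those labelled wild type. The groups are close but do not overlap, which 2 of the 10 tested member probes showed in this direction, beside 16.4% of all tested probes. The log2 fold change was -0.60 (95% interval -0.91 to -0.28, limma adjusted p = 0.0226), between -0.40 and -0.78 under the alternatives. This call was lost in 7 of 16 alternatives, among them 4 that leave out an array. The limma adjusted p was 0.0532 without Fnip1-null array B, 0.0568 without Fnip1-null array C, 0.0796 without wild-type array B and 0.0522 without wild-type array C. The other probe of Ccr2, ILMN_1226563, was detected on no array, with values from 4.24 to 4.34 on the arrays labelled Fnip1-null and from 4.22 to 4.31 on those labelled wild type. The fall therefore rests on 1 probe of 2. The platform annotation assigns that probe to a cDNA clone record, and the undetected probe to a RefSeq transcript of Ccr2. In a sorted population measured in bulk, fewer cells of a type and less RNA in each cell cannot be told apart.

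**Figure D2:**
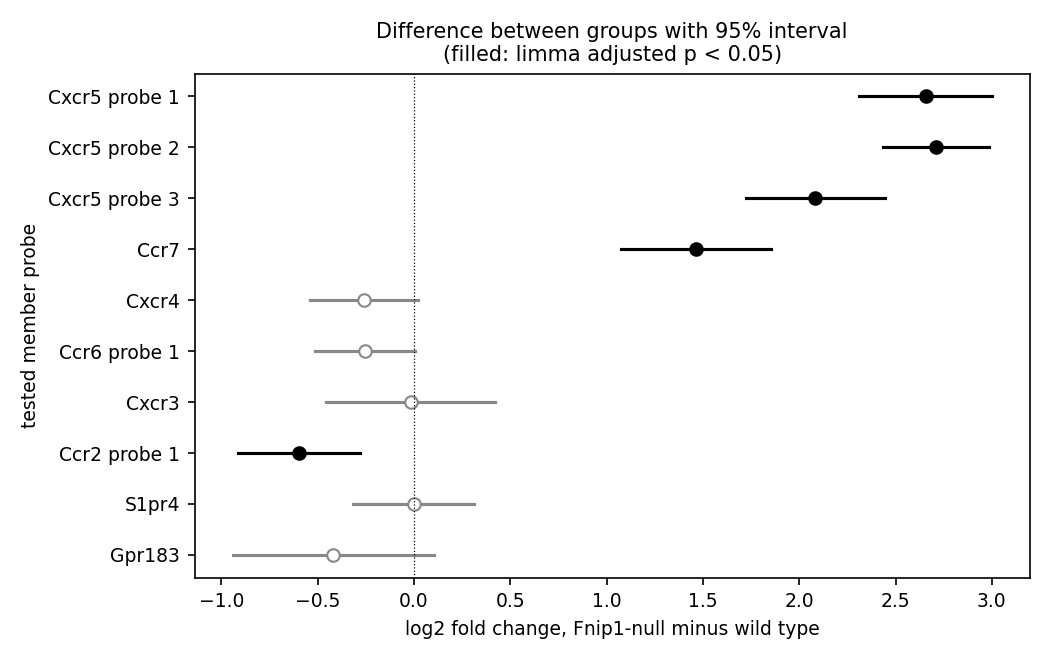
Log2 fold change (x axis, Fnip1-null minus wild type) of the 10 tested member probes with its 95% interval, filled where the limma adjusted p is under 0.05. The intervals of the 3 Cxcr5 probes and of Ccr7 lie above 1, that of Ccr2 lies below 0, and the other 5 cross 0.

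Cxcr4 encodes the receptor of CXCL12, which retains B-lineage precursors in the marrow. It read 9.04, 9.15 and 9.31 on arrays A, B and C labelled Fnip1-null and 9.37, 9.31 and 9.61 on those labelled wild type, where the groups overlap narrowly. The log2 fold change was -0.26 (95% interval -0.54 to 0.02, limma adjusted p = 0.207). The interval leaves room for a level up to 1.45-fold lower on the arrays labelled Fnip1-null, and at most 1.01-fold higher.

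S1pr4, a sphingosine 1-phosphate receptor gene of lymphoid cells, read 8.06, 7.74 and 7.93 on the arrays labelled Fnip1-null and 7.96, 8.10 and 7.67 on those labelled wild type. Its log2 fold change was -0.0016 (95% interval -0.32 to 0.31, limma adjusted p = 0.996), and its sign turned under median scaling and cyclic loess. S1pr1, the receptor through which lymphocytes leave tissues for blood and lymph, lay between 4.21 and 4.27 on the arrays labelled Fnip1-null and between 4.23 and 4.26 on those labelled wild type, at detection p from 0.788 up. With no detected array, nothing can be said of a difference in S1pr1 on this platform.

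Gpr183 encodes EBI2, the receptor for oxysterols that positions activated B cells in the outer follicle. Array A labelled Fnip1-null read 6.61 and arrays B and C 5.95 and 5.93, against 6.90, 6.72 and 6.13 on those labelled wild type. The spread within each group (SD 0.38 and 0.40) was about as large as the log2 fold change of -0.42 (95% interval -0.94 to 0.10, limma adjusted p = 0.273).

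Cxcr3, the receptor of the interferon-induced chemokines CXCL9, CXCL10 and CXCL11, is carried by T cells, natural killer cells and plasmacytoid dendritic cells. It read 9.16, 8.91 and 8.75 on arrays A, B and C labelled Fnip1-null and 9.37, 8.93 and 8.58 on those labelled wild type. The log2 fold change was -0.02 (95% interval -0.45 to 0.42, limma adjusted p = 0.970), with its sign turned under median scaling (0.0099). Ccr6, the receptor of CCL20 on mature B cells and some T cells, was close to the background. Its tested probe read 4.91, 4.75 and 4.84 on the arrays labelled Fnip1-null and 4.99, 5.26 and 5.01 on those labelled wild type, which do not overlap, yet the log2 fold change of -0.25 did not pass (95% interval -0.51 to 0.0041, limma adjusted p = 0.182). Its other probe was detected on 1 array, labelled wild type. Ccr9, which guides cells to the thymus and small intestine by CCL25, lay between 4.27 and 4.42 on the arrays labelled Fnip1-null and between 4.23 and 4.36 on those labelled wild type, not detected on any.

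**Figure D3:**
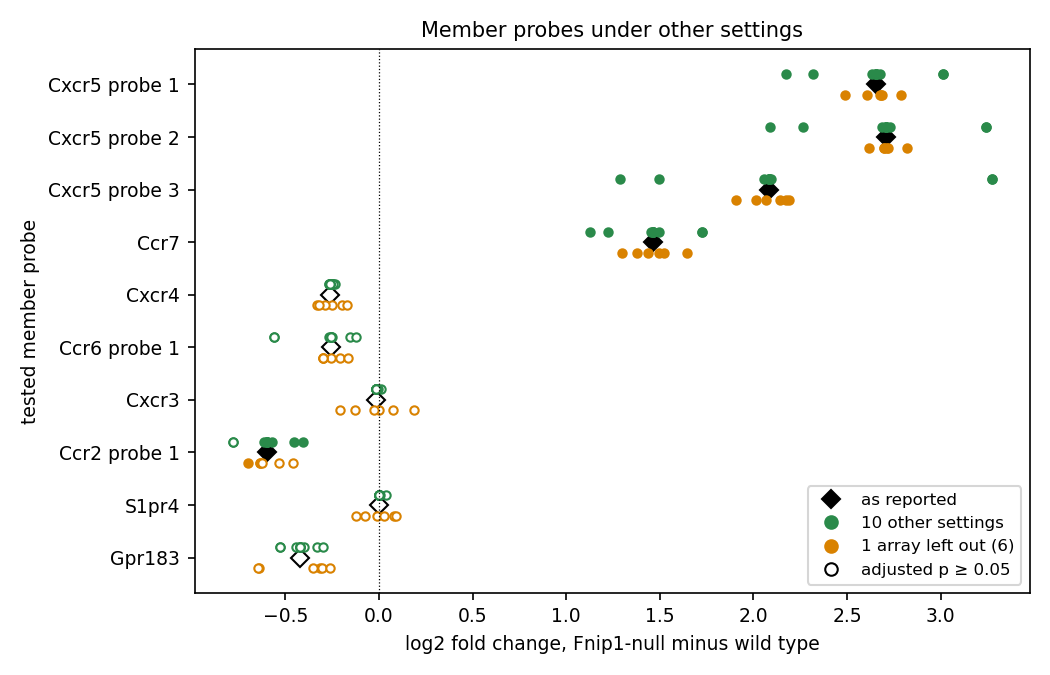
Log2 fold change (x axis) of each tested member probe as reported (black diamond), under 10 other settings (green) and with 1 of the 6 arrays left out (orange), filled where the adjusted p is under 0.05. Cxcr5 and Ccr7 are filled throughout, Ccr2 in part, and the other genes never.

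Other genes of the same pathways were followed through lists, in which a gene is represented by its tested probe of highest mean. Each count of called genes stands beside 7.87% called higher and 5.25% called lower over all tested genes. Among 17 further chemokine receptors 3 were tested (Ccrl2, Cx3cr1 and Ackr4) and none passed, and 13 were detected on no array. Of 19 other receptors for lipid chemoattractants 10 were tested, and 8 of them were detected in both groups, of which 1 fell and none rose, with a median log2 fold change of -0.28, against 0.01 over all tested genes. The remaining pair, Lpar1 and Lpar2, are receptors of lysophosphatidic acid that were detected on no array labelled wild type, so they passed the detection filter only through the arrays where they are high. Lpar1 read 5.42, 6.04 and 6.34 on the arrays labelled Fnip1-null, and its bound (described below) was 2.26-fold higher there. Lpar2 read 5.60, 5.71 and 5.59 on the arrays labelled Fnip1-null, and its bound was 1.83-fold higher. With all 45281 probes tested and no detection filter, limma gave an adjusted p of 0.0389 for Lpar1 and 0.00502 for Lpar2. The probes of these genes were still picked from those that had passed the filter, so this fit does not undo that selection. The bounds of Lpar1 and Lpar2 set the mean of the bright group against, on each dim array, the higher of the probe's own level and the lowest detected one. These bounds compare group means at this background offset and make no allowance for sampling error. Under the alternatives the log2 fold change ran from 0.73 to 2.75 for Lpar1 and from 0.57 to 2.74 for Lpar2. Cnr2, the cannabinoid receptor gene of B cells, read 6.15, 5.88 and 5.71 on the arrays labelled Fnip1-null and 6.90, 7.66 and 7.27 on those labelled wild type, and fell by 1.37 on the log2 scale (its other tested probe stood at -0.94 and was also called). The S1pr5 probe that represents the gene did not pass (-0.31), and its other probe was detected on no array labelled Fnip1-null and on all 3 labelled wild type. The P2ry10 probe that represents the gene did not pass either (-0.26), while its other probe was called lower (-0.44, limma adjusted p = 0.0401). Without array A labelled Fnip1-null 2 genes of this list were called lower.

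Ligands of the members were mostly not detected, 9 of 13 on no array, and none of the 3 tested passed (Cxcl12 at 0.40, Cxcl9 at 0.14 and Ccl25 at -0.09), although 1 was called higher without array A labelled wild type. Of 8 tested genes of sphingosine 1-phosphate and oxysterol metabolism 1 rose and 1 fell, with a median of 0.08. Sgpl1, the lyase that destroys sphingosine 1-phosphate, read 6.96, 7.24 and 6.87 on the arrays labelled Fnip1-null and 6.41, 6.49 and 6.33 on those labelled wild type. It rose by 0.61 (SE 0.12, limma adjusted p = 0.0117), and by 0.94 on its other tested probe. Plpp3, a lipid phosphate phosphatase that dephosphorylates the same lipid outside the cell, fell by 1.34 (SE 0.24, limma adjusted p = 0.00613), although its dimmer probe stood at 0.18 and did not pass, and its call was lost with no detection filter. Ch25h and Cyp7b1, the enzymes that make the ligand of GPR183, were detected on no array.

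Downstream of the receptors, 3 of 21 tested genes for G proteins, receptor kinases, arrestins and migration adaptors rose and none fell, with a median of -0.02, where 7.87% of all tested genes were called higher. Those were Dock2, the activator of Rac in lymphocyte migration (log2 fold change 0.72, limma adjusted p = 0.00778, or 0.0527 with a replicate block in the authors' processed values), Arrb1, the gene for β-arrestin 1 (0.64, 0.00706), and Gna12 (0.55, 0.0327), a G protein subunit gene whose call was lost in 7 of 16 alternatives. The inhibitory subunit gene Gnai2 stood at -0.15 and did not pass, nor did Rac2 (0.02) or Grk6 (-0.02). RGS proteins end G protein signals, and of 8 tested 2 fell and none rose, with a median of -0.23. Rgs2 read 5.66, 6.02 and 5.95 on the arrays labelled Fnip1-null and 7.26, 7.33 and 7.61 on those labelled wild type, and fell by 1.52 (SE 0.14, limma adjusted p = 0.000169), with its other probe at -0.96 and also called. Rgs16 fell by 1.20 (limma adjusted p = 0.0454), a call that 8 of 16 alternatives lost. Those include leaving out any Fnip1-null array or wild-type array B or C, and over all 6 such fits the log2 fold change ran from -1.55 to -0.86. Rgs1, an inhibitor of CXCR4 and CXCR5 signals in B cells, stood at 0.35 and did not pass.

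In the list of regulators of homing receptors, 1 of 10 tested genes rose and 3 fell, where 7.87% and 5.25% of all tested genes did, with a median of -0.44. With 1 array left out between 2 and 4 were called lower. Cd69, which removes S1PR1 from the cell surface, read 12.46, 12.25 and 11.84 on the arrays labelled Fnip1-null and 11.25, 10.63 and 11.08 on those labelled wild type. It rose by 1.20 (SE 0.20, limma adjusted p = 0.00447), with its dimmer probe at 0.21 and not called. The 3 that fell were Id2 (-0.97), the NF-κB subunit gene Relb (-0.83) and the B-lineage factor gene Ebf1 (-0.52). The call of Ebf1 was lost in 2 alternatives, among them the fit without Fnip1-null array C. Klf2, the activator of S1pr1 transcription in lymphocytes, read 10.67, 9.71 and 9.39 on the arrays labelled Fnip1-null and 10.74, 10.78 and 10.78 on those labelled wild type. Its groups do not overlap, but array A labelled Fnip1-null lies next to the wild-type arrays, and the log2 fold change of -0.85 did not pass (limma adjusted p = 0.0696). Foxo1, which promotes Ccr7 and Klf2 transcription in lymphocytes, stood at -0.25 and did not pass. None of 3 tested selectin ligand and hyaluronan receptor genes passed (Selplg, Cd44 and Cd24a), although 1 was called lower without array A labelled Fnip1-null and under 4 other alternatives.

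**Figure D4:**
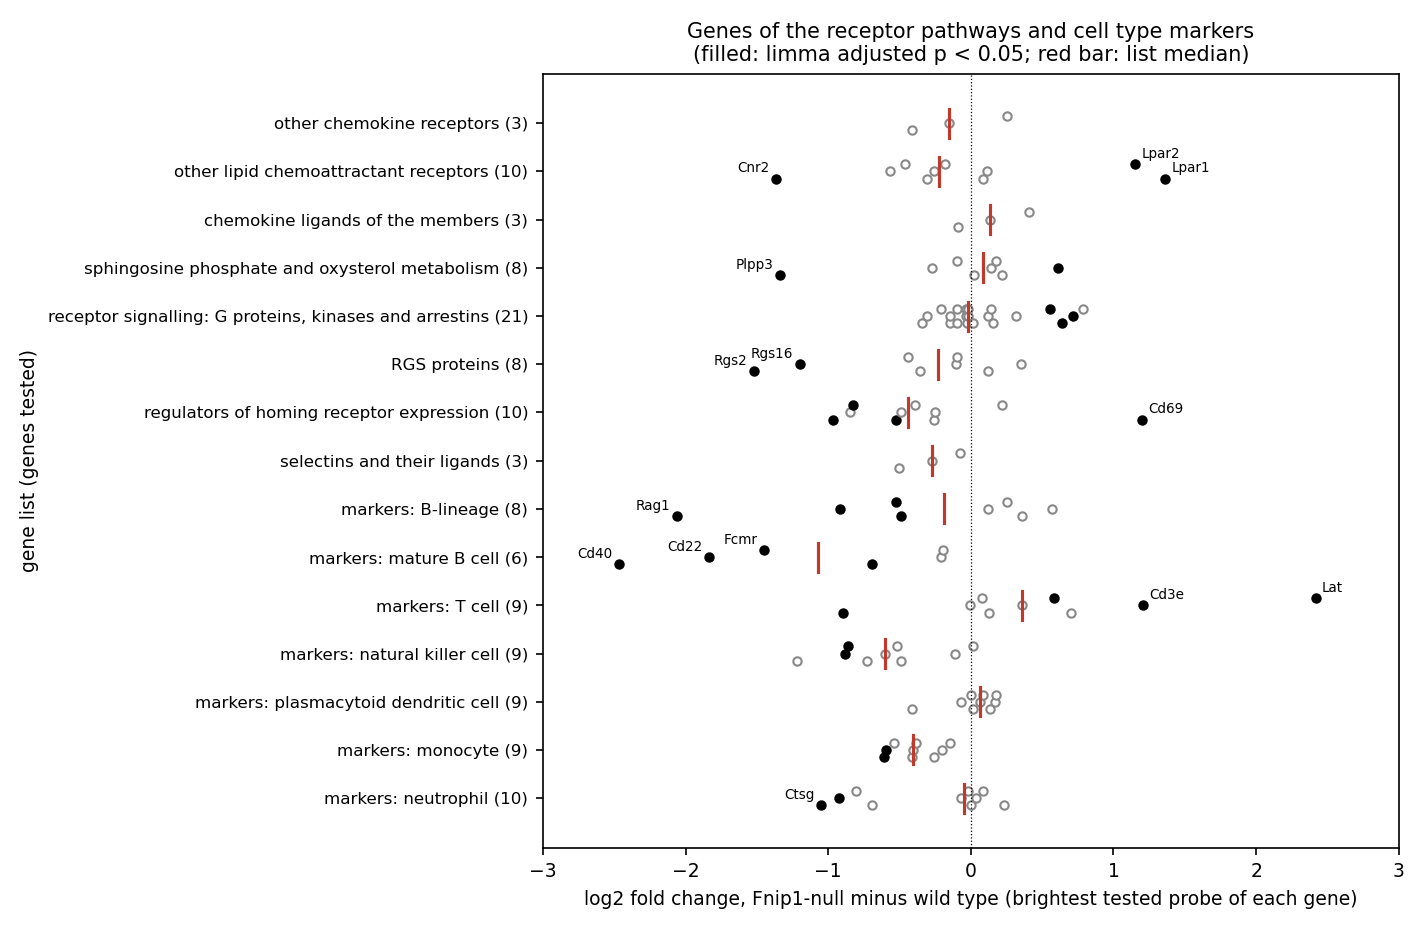
Log2 fold change (x axis) of the brightest tested probe of each gene in 8 pathway lists and 7 lists of cell type markers, filled where the limma adjusted p is under 0.05, with the list median as a red bar. Among mature B cell markers 4 of 6 are called lower, and among T cell markers 3 of 9 are called higher and 1 lower.

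Since Cxcr5 and Ccr7 are receptors of mature lymphocytes, markers of such cells are given beside them. Of 6 tested markers of mature B cells 4 fell and none rose: Cd40 (-2.47), Cd22 (-1.84), Fcmr (-1.45) and Fcrl1 (-0.69, a call lost with the replicate block). The summed normalized intensity of the 6 lay between 821 and 1044 on the arrays labelled Fnip1-null and between 2520 and 2725 on those labelled wild type. Most of that sum was Fcmr, at a mean log2 level of 9.45 on the arrays labelled Fnip1-null and 10.90 on those labelled wild type. The defining markers Cr2, Ms4a1 and Bank1 were detected on no array, and Fcer2a stood at -0.20 and did not pass. The part of mature B cells in the rise of Cxcr5 and Ccr7 was not tested.

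Of 9 tested genes on the T cell list 3 were called higher and 1 lower, where 7.87% and 5.25% of all tested genes were. The adaptor gene Lat rose by 2.42, Cd3e by 1.20 and Cd8b1 by 0.58, while Thy1 fell by 0.90, a call lost with no detection filter. Cd8b1 had other tested probes at 0.64 and -0.84 that did not pass. With 1 array left out between 2 and 5 markers were called higher, 5 of them without array C labelled Fnip1-null. Their summed intensity was 3369 to 4012 on the arrays labelled Fnip1-null and 2206 to 2521 on those labelled wild type. On the arrays labelled Fnip1-null most of that sum was Cd8b1 (mean 10.53, against 9.95 on wild type) and Lat (9.73, against 7.31). The groups overlapped for Cd3d, Cd3g, Cd247, Cd4 and Cd28. Cd3e read 8.72, 8.01 and 7.95 on arrays A, B and C labelled Fnip1-null. Its call was lost in 4 of 16 alternatives, among them the fits without wild-type array A or C. Cd3d (0.36) and Cd3g (0.70) did not pass, and Cd5 and Cd8a were detected on no array. The part of T cells in the rise of Cxcr5 and Ccr7 was not tested.

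Beside the fall of Ccr2, the only other monocyte marker called lower was Cd14 (-0.61, a call lost in 10 of 16 alternatives). Ccr2 is itself on this list of 9 tested markers. The 2 markers called lower, the median, the signs and the sums given here therefore include it and are not separate from its fall. The median of this list was -0.41, with none of the 9 values above 0, and no marker was called without array B or C of either group. Its summed intensity lay between 6238 and 10839 on the arrays labelled Fnip1-null and between 8144 and 10284 on those labelled wild type. Most of that sum was Lyz2, and without it the sum was 535 to 763 on the arrays labelled Fnip1-null and 724 to 1004 on those labelled wild type. Csf1r stood at -0.20 and did not pass. Of 9 natural killer cell markers 2 fell, Klre1 (-0.88, a call lost in 11 of 16 alternatives) and Eomes (-0.86, lost in 3), and Ncr1 was detected on no array. The median was -0.60, with 8 of 9 values below 0. Further probes of Klrk1 (-0.76) and Prf1 (-0.67) were called lower too, while the probes that represent these genes did not pass. With 1 array left out between 0 and 4 were called lower, the fewest without Fnip1-null array A and the most without wild-type array C. Their summed intensity was 4024 to 5583 on the arrays labelled Fnip1-null and 5073 to 7556 on those labelled wild type. Of 10 neutrophil markers 2 fell, Ctsg (-1.05, a call lost in 2 alternatives) and Prtn3 (-0.92, lost in 9), with sums of 12273 to 43711 on the arrays labelled Fnip1-null and 11167 to 27069 on those labelled wild type. None was called lower without array B labelled Fnip1-null, and 4 were without Fnip1-null array A or wild-type array C. The part of these cells in the fall of Ccr2 was not tested. Beside Cxcr3, none of 9 plasmacytoid dendritic cell markers passed, with a median of 0.07, Siglech at 0.01, and sums of 25777 to 31905 on the arrays labelled Fnip1-null and 22911 to 30901 on those labelled wild type. Spib stood at -0.41 by its representing probe, while its other probe was called lower (-0.99), and 1 marker was called lower without array A labelled wild type. B-lineage markers had 4 of 8 called lower and none higher: Rag1 (-2.06), Vpreb3 (-0.92, a call lost with the replicate block), Ebf1 (-0.52) and Cd79b (-0.49, a call lost in 7 of 16 alternatives). Of these markers 2 were called higher without array A labelled wild type and 1 with a block on sex, and 1 was called lower with the replicate block.

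Genes with the most similar profile were found by the root mean square difference of log2 levels over the 6 arrays, each gene centred on its own mean. Nearest to the brightest Cxcr5 probe were the proline dehydrogenase gene Prodh (0.13), its neighbour in the RefSeq annotation Dgcr6 (0.19) and Lat (0.20). For the second probe they were Prodh (0.09), Dgcr6 (0.18) and the Rag GTPase gene Rragd (0.21), and for the dimmest the protein kinase C gene Prkch (0.15), Lat (0.19) and the repressor gene Bhlhe40 (0.20). Ccr7 was closest to the glutathione transferase gene Gstm1 (0.10), the ferrochelatase gene Fech (0.13) and the integrin gene Itga6 (0.13). Ccr2 was closest to Sertad3 (0.06), the histone gene H2ac18 (0.08) and Cd200r3 (0.09). Since most of each profile is the difference between the groups, these lists name genes with a change of like size and direction over 6 arrays, and carry no test.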

How the data were processed

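Per the file headers, every probe of the deposited scanner table has 1 intensity and 1 detection p-value per array, with no normalization stated. The authors' processed values were deposited as a series matrix and taken as log2 from their range; its background correction is not given in the sources used here, and the submitters' processing notes name affy. Each of its columns ranks the probes as 1 scanner column of the same group does. Scanner columns carry no replicate number, so arrays are called A, B and C in column order. Each scanner column name does start with a number of its own, different for every array, whose meaning is not stated. The labels do not say that arrays came from separate mice. By the sex genes, array A of each group cannot hold RNA of the same mouse as arrays B and C, while B and C may share a mouse. The p-values reflect only how these arrays vary, which may be in part technical.

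Intensities were corrected by normexp from the detection p-values (offset 16), quantile normalized and put on log2 (neqc steps, limma 3.58.1, R 4.3.3). Probes detected at p under 0.05 on at least 3 of 6 arrays were tested with lmFit and eBayes, adjusted by Benjamini-Hochberg over all of them; 95% intervals use the moderated error with 9.17 degrees of freedom. Gene names came from the platform annotation, their symbols updated through RefSeq gene numbers (34807 probes) or accessions (11). Named genes are all members, up to 4 called genes of lowest p in each list, a set of defining markers and the 3 most similar genes per called probe; others were chosen after their values were seen. The members and lists were chosen with earlier results of these data known. The fit was run on simulated arrays with independent normal noise and spreads drawn from limma's fitted prior. That run checks the code, and not how these arrays vary.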

Additional observations from a re-analysis of the deposited data

How the results depend on the processing

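In all 16 alternatives, including the 6 fits that drop 1 array, the 3 Cxcr5 probes and Ccr7 kept their direction and call in every fit, with log2 fold changes from 2.17 to 3.01, 2.09 to 3.24, 1.29 to 3.27 and 1.13 to 1.73, so 4 member probes were called higher throughout. The number called lower, 1 as reported (Ccr2), was 0 in the authors' processed values, 0 in these with a replicate block, 0 with no detection filter and between 0 and 1 with 1 array left out. Cxcr4, Ccr6 (15 alternatives, since the stricter filter drops its probe) and Gpr183 were never called, nor did their sign turn. Values of Cxcr3 and S1pr4, both near 0, turned sign under median scaling (0.0099 and 0.036) and that of S1pr4 under cyclic loess (0.0033), and with 1 array left out they ran from -0.21 to 0.19 and from -0.12 to 0.092; none of these was called. Over all tested probes 2583 were called, 1397 with the replicate block on the authors' processed values and between 1562 and 1948 with 1 array left out. Median scaling made 58.9% of all calls higher, against 54.2% as reported. The replicate numbers were not taken as pairs: deviations of same-numbered samples correlated at 0.17, -0.0032 and 0.23 for numbers 1, 2 and 3. The highest correlation of each Fnip1-null sample with a wild-type sample of another number was 0.074, 0.062 and -0.088. Same-numbered samples thus correlated best for numbers 1 and 3 but not for number 2. Signal over background limits Ccr9, S1pr1 and one probe each of Ccr2 and Ccr6, which were not tested. The cause of the lost Ccr2 calls was not tested.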
